A study of Homo sapiens with 12 samples.

Results

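The miR-29 family was followed through 14 days of osteogenic culture in Saos-2 cells, a human osteosarcoma line, and in Sa/CD99 cells derived from it. The members were the array names hsa-miR-29a, hsa-miR-29b and hsa-miR-29c, taken by name, and they were 3 of the 851 human miRNA names in the normalized value table of the series. Of the 3 members, miR-29a was detected on 12 of 12 arrays, miR-29b on 1 and miR-29c on 0. By the labels of the value table, miR-29a did not pass the test between Sa/CD99 and Saos-2 at any day, and in each cell type it stood lower at day 14 than at day 0 on the normalized scale, whereas its scanner signal before normalization was not lower on average.

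The 6 groups were parental Saos-2 cells and Sa/CD99 cells, which carry a stably expressed CD99 gene under neomycin selection. Each was taken at day 0, the basal condition, and after 7 and 14 days in osteogenic medium. That medium also held less serum than the routine medium. In comparisons with day 0 the effects of time, medium and serum therefore cannot be told apart. Each group held 2 arrays. The Sa/CD99 arrays came from 2 clones, wt22 and wt36, measured once at each day, so that transfection, selection and the particular clones cannot be told apart, and no control clone with an empty vector was analysed here. The labels call the Saos-2 arrays replicates without saying whether the cultures were separate, so p-values measure only the spread between these arrays. The question was whether the family differed between the cell types or moved with differentiation.

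A miRNA is cut from a hairpin precursor, and its seed, bases 2 to 8, pairs with the messenger RNAs that it holds down. The miR-29 family is known in bone for repressing collagens and other matrix genes and, in osteoblasts, inhibitors of Wnt signalling and osteonectin. CD99 is a surface glycoprotein that acts in cell adhesion.

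The mature sequences are shown because the members share 1 seed and differ in few bases, so that a reader can see what the array had to tell apart. They were taken from the RefSeq annotation of GRCh38.p14, in which all 3 members were matched to their 3p arms, and the seed is in capitals.
miR-29a: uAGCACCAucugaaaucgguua
miR-29b: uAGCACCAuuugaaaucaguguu
miR-29c: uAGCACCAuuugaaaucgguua
The seed AGCACCA was held by 3 of the 2370 human mature miRNA names in RefSeq, or 0.127%, and these were the 3 members. With positions counted from 1 at the 5′ end, miR-29a and miR-29c were identical at 21 of 22 positions and differed by C10U (miR-29a first). From miR-29c to miR-29b the differences were G18A, U21G and A22U, besides the additional last base of miR-29b. Cross-hybridization between these names on the array was not tested.

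The members come from 2 clusters. miR-29a lies at chr7:130876748-130876769 on the minus strand, in the gene MIR29A, and 1 source of miR-29b lies at chr7:130877467-130877489 on the same strand, in MIR29B1. Their annotated hairpins are 648 bases apart. The other source of miR-29b, MIR29B2, places it at chr1:207802450-207802472, and miR-29c lies at chr1:207801865-207801886 in MIR29C, both on the minus strand and with 503 bases between the hairpins. The opposite arm of the MIR29B1 hairpin, named miR-29b-1* on the array, has another seed and lies at chr7:130877507-130877530. It is shown because it was the only other product of these hairpins seen on every array.
miR-29b-1*: gCUGGUUUcauauggugguuuaga

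The deposited records disagreed on which array belonged to which sample. The pattern of which miRNAs were detected paired every column of the value table with exactly 1 scanner array, with 847 of 847 names in common alike, and none of the 12 pairs carried the same sample label in both records. For 12 of 12 samples, the place of the scanner file in alphabetical order equalled the place of its sample in the order of record numbers. The values below follow the column labels of the table. Scanner arrays were given the label of their matching column, and values with the arrays as filed are given for miR-29a, miR-29b-1* and the osteoblast list. On that labelling the 4 day 0 arrays had the lowest summed human miRNA signal, 8594 to 11371, against 25232 to 62236 on the other 8. Between 133 and 158 miRNAs were detected on the day 0 arrays, and between 158 and 229 on the others. Both day 0 groups and Saos-2 at day 7 were on slide 1, and the other groups were on slide 2. Of the mesenchymal markers, 7 of 8 were detected on all arrays and miR-143 on none. Of the markers of epithelium, blood, muscle and liver, none was detected on any array, and of the neural markers miR-9 was seen on 1 array and miR-124 on none.

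miR-29a was well above background in 192 of 192 spots, from 2 probes printed 8 times each on every array. Its total gene signal, the scanner software's summary of all probes of a miRNA before normalization between arrays, lay between 44.9 and 126. miR-29b was detected on the second Saos-2 array of day 7 alone, with a total gene signal of 4.13 and 3 of 16 spots well above background. The lowest signal of any detected miRNA on that array was 1.38. On the other 11 arrays miR-29b stood at the column minimum. Over all arrays 4 of its 192 spots were well above background, and all 4 belonged to 1 of its 2 probes.

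miR-29c was at the column minimum on all 12 arrays, with 3 of 192 spots well above background and at most 1 on any array. Of the opposite arms, miR-29a* was detected on 2 arrays, Saos-2 replicate 2 at days 0 and 7, while miR-29b-2* and miR-29c* were detected on none. miR-29b-1* was detected on 12 arrays, although with 1 to 9 of 16 spots well above background. Of its 45 such spots over all arrays, 29 belonged to 1 of its 4 probes, and another probe had 0 of 48. The filter asked for detection in 2 of 2 arrays in some group, and 1 of the 3 members passed it. miR-29b and miR-29c were left out of the test by this filter. A value at the column minimum says that the scanner software did not detect the miRNA and gives no level.

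**Figure D1:**
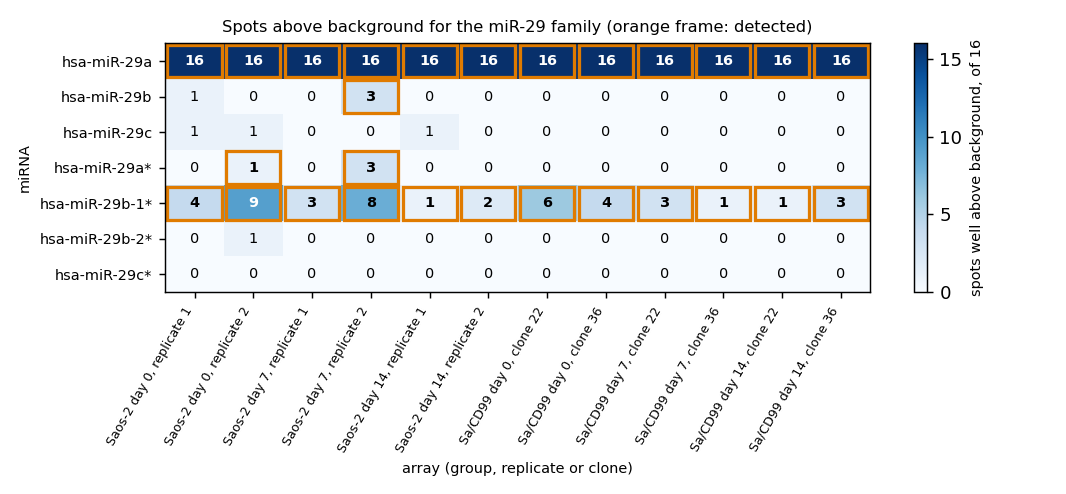
Number of spots, of 16 on each array, that were well above background for each of the 7 names of the miR-29 hairpins (vertical axis) on the 12 arrays (horizontal axis), under the labels of the value table. Orange frames mark detected values. miR-29a fills all 16 spots on every array, miR-29b-1* between 1 and 9, and miR-29b is framed on 1 array.

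Between cell types miR-29a was nearly level at day 0 and did not pass the test at any day. At day 0 the normalized log2 values were 6.47 and 6.52 in Saos-2 and 6.47 and 6.41 in Sa/CD99 clones 22 and 36, and the groups touched at 6.47. At day 7 they were 5.93 and 6.11 in Saos-2 and 5.93 and 5.54 in Sa/CD99, again touching at the upper clone. At day 14 they were 5.24 and 5.64 in Saos-2 and 5.54 and 5.64 in Sa/CD99, and the groups overlapped.

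The difference of Sa/CD99 from Saos-2 was -0.055 ± 0.30 (SE, n = 2 per group) on the log2 scale at day 0, with a limma adjusted p-value of 0.9996. It was -0.28 ± 0.30 at day 7, with an adjusted p-value of 0.822, and 0.15 ± 0.30 at day 14, with an adjusted p-value of 0.831. The 95% intervals ran from -0.76 to 0.65, from -0.99 to 0.42 and from -0.55 to 0.85, and they include differences of either sign. With the call rule of the study's methods, a p-value of at most 0.01 and a fold of at least 1.4, 2.74% of the 219 tested miRNAs were called at day 0, 3.2% at day 7 and 9.13% at day 14, in either direction. Over all 3 days the difference was -0.063 ± 0.18, with a limma adjusted p-value of 0.877, where 2.74% of the miRNAs were called at an adjusted p-value of 0.05. The day 0 and day 14 comparisons were each within 1 slide, while at day 7 the effects of slide and line cannot be told apart.

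This result depended on which record of the samples was followed. With the scanner arrays as filed, miR-29a was higher in Sa/CD99 than in Saos-2 by 0.89 over all days on the log2 scale, with a limma adjusted p-value of 0.0245. In that comparison 96 of the 213 miRNAs tested as filed were called, and the median difference of all of them was 0.31. The fit took the arrays of a clone at the 3 days as independent, and no fit that links them was run as filed. At days 0, 7 and 14 miR-29a was higher by 1.04, 0.54 and 1.09 and was not called, where limma called 5, 0 and 14 of the 213 (at day 7, 7 had an unadjusted p-value of at most 0.05). The 6 arrays filed as Sa/CD99 lay between 5.64 and 6.47, and the 6 filed as Saos-2 between 4.88 and 5.72, overlapping at 1 array of each. As filed, each cell type was on a slide of its own, and the effects of slide and line cannot be told apart.

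Over the days the normalized miR-29a values were lower on average after day 0 in both cell types. In Saos-2 the group means were 6.50 ± 0.037 at day 0, 6.02 ± 0.13 at day 7 and 5.44 ± 0.28 at day 14 (SD, n = 2). In Sa/CD99 they were 6.44 ± 0.041, 5.74 ± 0.27 and 5.59 ± 0.064. No single step passed the test. From day 0 to day 7 the change was -0.48 ± 0.30 (SE) in Saos-2, with a limma adjusted p-value of 0.224, where 36.5% of the miRNAs were called, and -0.71 ± 0.30 in Sa/CD99, with an adjusted p-value of 0.116, where 32% were called. From day 7 to day 14 it was -0.58 ± 0.30 in Saos-2, with a limma adjusted p-value of 0.549 and 0% of the miRNAs called (19 had an unadjusted p-value under 0.05), and -0.15 ± 0.30 in Sa/CD99, with an adjusted p-value of 0.742 and 19.6% called.

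The comparison of day 14 with day 0 was added after these values had been seen. miR-29a then differed by -1.06 ± 0.30 in Saos-2, a level 0.48 times that of day 0, with a limma adjusted p-value of 0.0211. In Sa/CD99 the difference was -0.85 ± 0.30, a level 0.55 times that of day 0, with an adjusted p-value of 0.0323. The call in Sa/CD99 was lost without any 1 of its 4 arrays of these days, with adjusted p-values of 0.0758 to 0.111, and that in Saos-2 without either day 0 array or without day 14 replicate 1, with adjusted p-values of 0.0563 to 0.0807. With the arrays as filed the differences were 0.25 in Saos-2 and 0.30 in Sa/CD99. These calls were among many, since 55.7% of the 219 miRNAs were called in Saos-2 and 74.4% in Sa/CD99, and 26.9% and 37.4% were called lower. The median change of all tested miRNAs was -0.47 and -0.64. Among the 100 miRNAs detected on all arrays it was -1.15 in Saos-2 and -1.57 in Sa/CD99, and against that median miR-29a stood 0.09 and 0.72 higher. The calls were lost when each array was centred on its own median value of those 100 miRNAs. The differences were then -0.33 in Saos-2 and 0.27 in Sa/CD99, with limma adjusted p-values of 0.416 and 0.465. That reference is not the median of the changes, and in Saos-2 the signs were opposite.

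Before normalization miR-29a did not show this order of days. The total gene signal of miR-29a in Saos-2 was 48.7 and 73.0 at day 0, 46.2 and 126 at day 7, and 44.9 and 102 at day 14, for replicates 1 and 2. Replicate 1 was similar at the 3 days, and replicate 2 was above it at every day. In Sa/CD99 the signal was 52.9 and 47.9 at day 0, 75.8 and 52.9 at day 7, and 65.2 and 83.7 at day 14, for clones 22 and 36, and both day 14 arrays were above both day 0 arrays. On the log2 scale without normalization the difference of day 14 from day 0 was 0.19 ± 0.61 in Saos-2 and 0.55 ± 0.61 in Sa/CD99 (SE), with limma adjusted p-values of 0.896 and 0.564.

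As a share of the summed human miRNA signal of its array, miR-29a made up 0.576% and 0.568% at day 0 in Saos-2 and Sa/CD99, 0.203% and 0.158% at day 7, and 0.167% and 0.124% at day 14 (group means, n = 2). The share was thus highest where the summed signal was lowest, at day 0. The part of summed signal, of medium and of slide in the fall of the normalized values was not tested. In bulk RNA fewer cells of a kind and less miRNA per cell cannot be told apart. Day 0 and day 14 lay on different slides in both cell types. The change from day 0 to day 7 in Saos-2 and that from day 7 to day 14 in Sa/CD99 were within a slide, and neither passed the test.

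**Figure D2:**
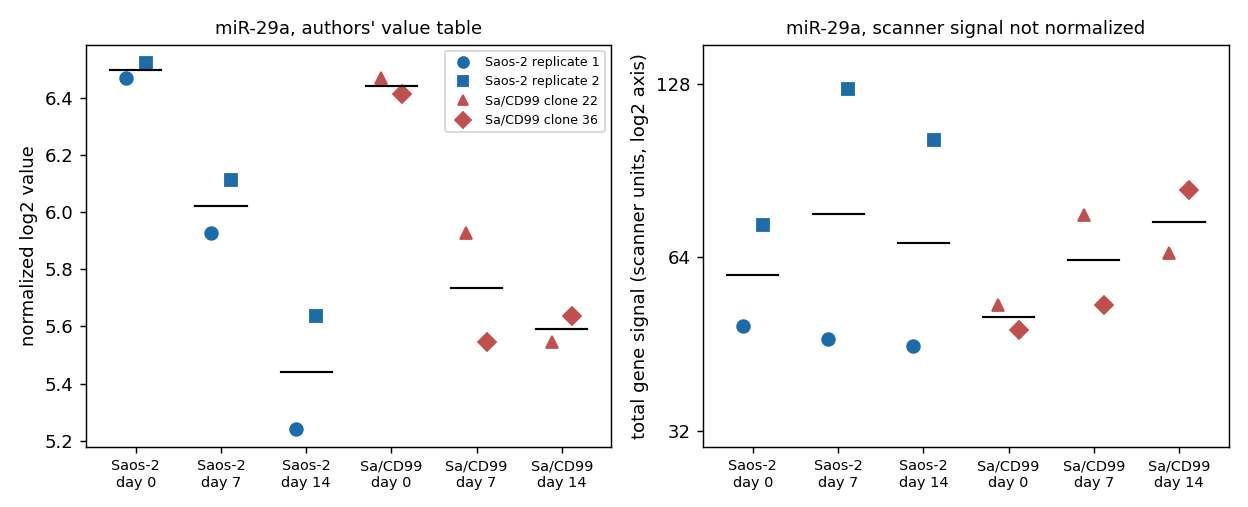
miR-29a on each array by cell type and day, as the normalized log2 value of the authors' table (left) and as the total gene signal of the matching scanner array before normalization, on a log2 axis (right). Points are single arrays and black lines are group means (geometric on the right). The normalized values fall from 6.41 to 6.52 at day 0 to 5.24 to 5.64 at day 14, while the signal in Saos-2 replicate 1 goes from 48.7 to 44.9 and in Sa/CD99 clone 36 from 47.9 to 83.7.

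The change over days was not shown to differ between the cell types, with a limma adjusted p-value of 0.944 for the interaction of cell type and day, for which 1.83% of the miRNAs were called. Before normalization, the 2 probes of miR-29a gave the same picture across arrays. Their signals correlated at r = 0.988 over the 12 arrays, as a description, and the ratio between them stayed within 1.36 and 1.60 on the log2 scale. The log2 differences between groups from the 2 probes were at most 0.17 apart. From day 0 to day 7 both probes rose, by 0.26 and 0.42 in Saos-2 and by 0.34 and 0.33 in Sa/CD99. The normalized values of miR-29a fell between these days. The 8 spots of a probe on 1 array had a median coefficient of variation of 12.5% for one probe and 10.1% for the other.

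miR-29b-1*, whose hairpin adjoins that of miR-29a on the chromosome, also had its highest normalized values at day 0 and was called lower at day 7 in both cell types. Its log2 values in Saos-2 were 3.37 and 3.70 at day 0, 0.78 and 0.41 at day 7, and -1.27 for each replicate at day 14. In Sa/CD99 clones 22 and 36 they were 3.65 and 3.70, then 1.42 and 0.12, and then -1.32 and -0.98. The group means fell from day to day in both cell types, and the cell types overlapped at each day.

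From day 0 to day 7 miR-29b-1* changed by -2.94 ± 0.45 (SE) in Saos-2, with a limma adjusted p-value of 0.00119, where 15.1% of the miRNAs were called lower. In Sa/CD99 it changed by -2.91 ± 0.45, with an adjusted p-value of 0.00133, where 11% were called lower. In Sa/CD99 these days lay on different slides. From day 7 to day 14 the change was -1.91 ± 0.45 in Sa/CD99, with a limma adjusted p-value of 0.0268, where 4.57% were called lower, and -1.87 ± 0.45 in Saos-2, with an adjusted p-value of 0.221. The call in Sa/CD99 was lost in 12 of 23 settings, among them the fits without clone 22 of day 7, at -1.26, and without either day 14 array, at -1.75 and -2.08. It was also lost with rma under the matching labels, at -0.14, at the 75th percentile, at -0.56, and without normalization, at -0.53. Between cell types the differences were 0.14, 0.17 and 0.12 at days 0, 7 and 14 on the log2 scale, each with an SE of 0.45, and none was called.

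The size of this difference changed with the scaling. From day 0 to day 7 it was -1.39 in Saos-2 and -0.83 in Sa/CD99 with rma under the matching labels, with limma adjusted p-values of 0.0027 and 0.039. Scaled to the 75th percentile it was -0.71 and -0.86, with limma adjusted p-values of 0.252 and 0.206, and was no longer called. With the arrays as filed it was 0.15 and 0.10 and not called. Sa/CD99 was then higher than Saos-2 by 0.95 over all days, with a limma adjusted p-value of 0.0466, in a comparison that called 96 of 213 miRNAs. There too the arrays of a clone were taken as independent.

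The total gene signal of miR-29b-1* in Saos-2 replicates 1 and 2 was 4.15 and 8.96 at day 0, 2.54 and 8.37 at day 7, and 1.54 and 3.71 at day 14. In Sa/CD99 it was 5.16 and 5.46, then 5.62 and 3.59, and then 1.82 and 5.30. The lowest signal of any detected miRNA lay between 1.17 and 1.61 over the arrays, so the 1.54 and 1.82 of day 14 were close to it. Without normalization the change from day 0 to day 7 was -0.40 in Saos-2 and -0.24 in Sa/CD99 on the log2 scale, with limma adjusted p-values of 0.855 and 1. In Saos-2 at day 14 both signals were under both of day 0, whereas in Sa/CD99 the days overlapped.

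**Figure D3:**
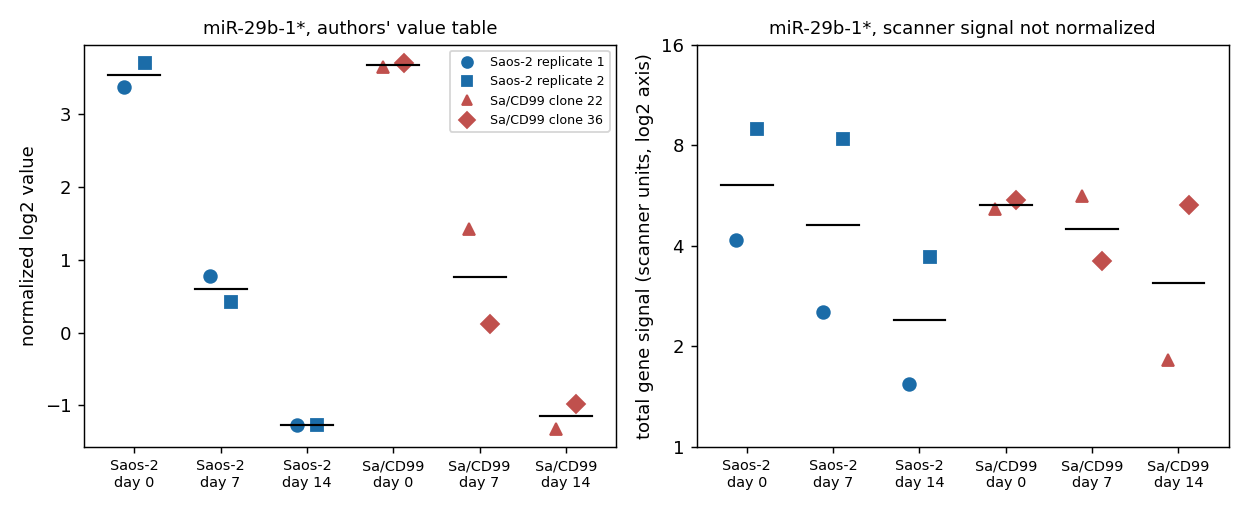
miR-29b-1* on each array by cell type and day, as the normalized log2 value of the authors' table (left) and as the total gene signal of the matching scanner array before normalization, on a log2 axis (right). Points are single arrays and black lines are group means (geometric on the right). The normalized values go from 3.37 to 3.70 at day 0 to -1.32 to -0.98 at day 14, while the scanner signal stays between 1.54 and 8.96.

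The direction of the miR-29a differences under other treatments of the arrays is given here because several changed sign. From day 0 to day 7 in Saos-2, the difference was -0.48 in the table, -0.58 with rma on the scanner arrays under the matching labels, 0.052 when scaled to the 75th percentile and 0.36 without normalization. In Sa/CD99 it was -0.95 with rma, with a limma adjusted p-value of 0.0175, and 0.33 without normalization. From day 7 to day 14 in Saos-2 it was below 0 in all 23 settings tried, from -0.78 to -0.17, and was called in none. Many of these settings, such as other filters or thresholds, cannot alter this difference, so their agreement carries no weight.

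**Figure D4:**
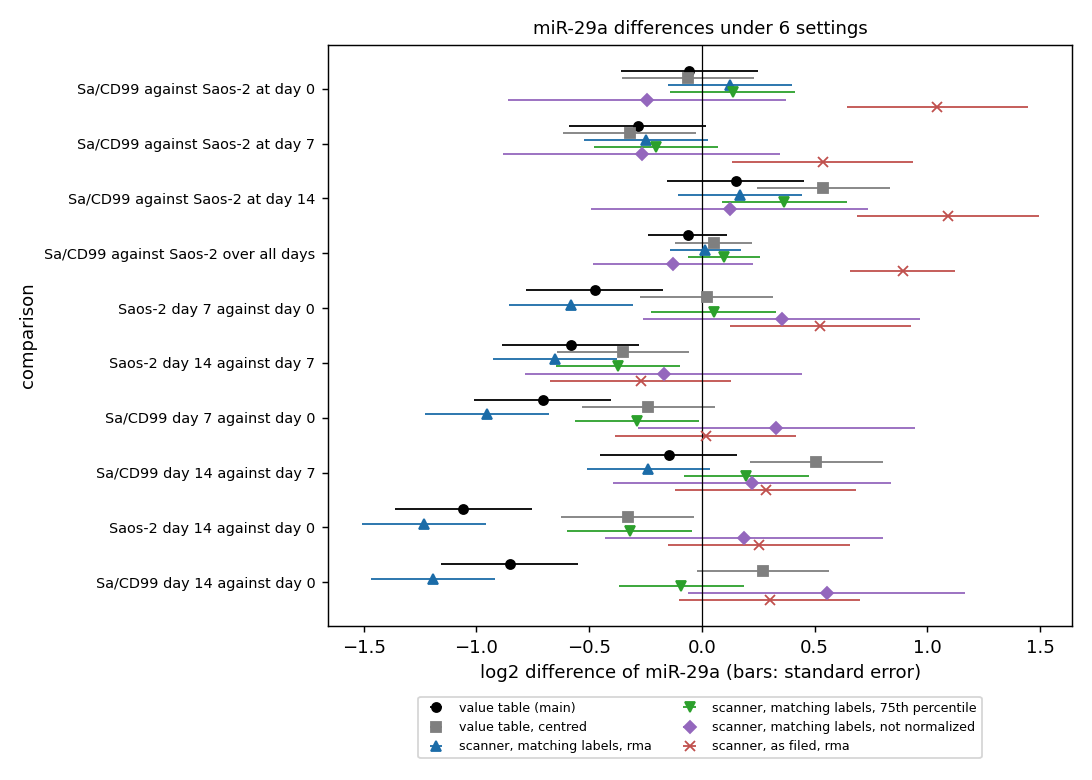
Log2 difference of miR-29a (horizontal axis) in each of 10 comparisons (vertical axis) under 6 settings, with bars of 1 standard error. Over all days the cell types differ by -0.063 in the table and by 0.89 for the arrays as filed, and the differences of day 14 from day 0 range from -1.23 with rma to 0.55 without normalization.

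The names whose values across the 12 arrays of the table were most like those of miR-29a, among 99 others detected on all arrays, were miR-29b-1* with r = 0.941, miR-181b with r = 0.897 and miR-99b with r = 0.895. These are descriptions over arrays that share labels, normalization and the low summed signal of day 0. The median r of the 99 was 0.766, and 33 were above 0.8. miR-181b, for example, was between 5.00 and 5.34 on the day 0 arrays and between 2.64 and 4.39 at day 14 on the log2 scale, and miR-99b between 5.49 and 5.75 and between 3.02 and 4.07. In turn, miR-29b-1* was more like miR-99b (r = 0.963), miR-221 (r = 0.953) and miR-92a (r = 0.948) than like miR-29a. Its median r was 0.817, and 52 names were above 0.8.

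Of 20 other miRNAs described in osteoblast differentiation, 10 passed the filter and the others were detected on no array. None was called between cell types at day 0, and 1 was called higher in Sa/CD99 at each of days 7 and 14, where 0.913% and 6.85% of all tested miRNAs were called higher. This was miR-34c-5p, a miRNA induced by p53, with limma adjusted p-values of 0.207 and 0.0726. It was detected on 5 of 12 arrays, which were 2 of 2 in Sa/CD99 at each of days 7 and 14 and 1 of 2 in Saos-2 at day 7. It passed the filter only through the groups in which it was detected, and since the other arrays stood at the column minimum no size is given. From day 0 to day 7, 3 of the 10 were called lower in Saos-2, where 15.1% of all tested miRNAs were. In Sa/CD99 1, again miR-34c-5p, was called higher and 1 lower, against 21% and 11% of all tested miRNAs. The median changes of the 10 were -1.07 and -0.95, against -0.61 and -0.20 for all tested miRNAs. Of the 10, 8 were detected on all arrays, and the 100 miRNAs detected on all arrays had medians of -0.97 and -0.81.

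From day 7 to day 14, none of the 10 was called in Saos-2, where 0% of all tested miRNAs were, and 1 was called lower in Sa/CD99, where 4.57% were. This was miR-30c, which is known to target RUNX2, the master transcription factor of osteoblasts. It changed by -2.78 on the log2 scale, with a limma adjusted p-value of 0.0277, and by 0.25 with the arrays as filed. miR-210, a hypoxia-induced miRNA, had changed by -3.15 in Saos-2 and -3.34 in Sa/CD99 from day 0 to day 7, with limma adjusted p-values of 0.000322 and 0.000219, and by 0.27 and -0.28 with the arrays as filed. In the comparison of day 14 with day 0, 5 of the 10 were called lower in Saos-2, against 26.9% of all tested miRNAs. In Sa/CD99 7 were called lower and 1 higher, against 37.4% and 37% of all tested miRNAs. The 1 called higher was again miR-34c-5p. It was detected on 0 of 2 Sa/CD99 arrays at day 0, so its call sets detected values against the column minimum. With the arrays as filed, limma called none of the list in any comparison of days or between cell types at a single day, where it called 5, 0 and 14 of 213 miRNAs. In the comparisons of days it called 0 of 213, and between 0 and 11 had an unadjusted p-value of at most 0.05. As filed, 5 of the 10 were called higher in Sa/CD99 over all days, among 96 of 213 called. miR-210 was 2.67 higher, with a limma adjusted p-value of 0.0282. The arrays of a clone were again taken as independent.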

How the data were processed

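The miRNA profiles came from 12 Agilent human miRNA (v3) arrays, 2 per group. Spot intensities were read by the authors with Feature Extraction (10.7.3.1 in the file headers, an earlier version in the study's methods) and were deposited without normalization across arrays. A normalized table of log2 values was deposited beside them. Its rank order in each column was that of the total gene signal of 1 scanner array, and quantile normalization of that signal rebuilt it (median difference over detected miRNAs 0.063, largest 0.88, and at most 0.082 for miR-29a, on the log2 scale), whereas the submitters' processing notes name RMA, with undetected miRNAs, set to 0.1 before the log, at a minimum in each column. The table was the main source because the rule for the members names it, and its labels disagree with the filing of the scanner arrays.

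The 6 groups were fitted with limma 3.58.1 (R 4.3.3; 6 residual degrees of freedom) to 219 of 851 miRNAs, those detected in 2 of 2 arrays in some group. Cell types at a day were called at a p-value of at most 0.01 and a log2 fold change of at least 0.485, and the other comparisons at a Benjamini-Hochberg adjusted p-value of 0.05. The alternatives were scanner arrays under either labelling with rma, scaling to the 75th percentile, centring, other filters, thresholds and samples in the fit, a replicate block and leaving out each array. For the block, replicate deviations of 2 days correlated at 0.18 to 0.20 in Saos-2 and 0.034 to 0.18 in Sa/CD99, where a number is 1 clone. Unnormalized signal, rma without background correction and the comparison of day 14 with day 0 were added after seeing the data. The script was tested on simulated data. Mature sequences were matched by name to RefSeq. The named miRNAs were the members, the opposite arms, the 3 most correlated names, and at most 4 of the osteoblast list per comparison, by size of change. The members and lists were chosen with earlier results of these data known.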

Additional observations from a re-analysis of the deposited data

How the results depend on the processing

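Of the miR-29a comparisons, Saos-2 day 14 against day 7 kept its direction in all settings, although many of these settings cannot alter the difference. It was called in none, and neither were the cell types at days 0, 7 and 14, Sa/CD99 day 14 against day 7 and the interaction. Signs turned as follows, on the log2 scale. With the scanner arrays as filed, Sa/CD99 against Saos-2 was 1.04 at day 0, 0.54 at day 7 and 0.89 over all days (1.09 at day 14, against 0.15 in the table and 0.54 when centred), and the changes were 0.53 for Saos-2 and 0.017 for Sa/CD99 from day 0 to day 7, 0.28 for Sa/CD99 from day 7 to day 14, and 0.25 for Saos-2 and 0.30 for Sa/CD99 from day 0 to day 14. With rma under the matching labels, Sa/CD99 against Saos-2 was 0.13 at day 0 and 0.016 over all days, and the change from day 0 to day 7 in Sa/CD99 was -0.95 and was called. Scaled to the 75th percentile, the values were 0.14 at day 0, 0.10 over all days, 0.052 for Saos-2 from day 0 to day 7 and 0.20 for Sa/CD99 from day 7 to day 14, while day 14 against day 0 was no longer called, at -0.32 in Saos-2 and -0.091 in Sa/CD99. Centred on the miRNAs detected on all arrays, they were 0.053 over all days, 0.022 for Saos-2 from day 0 to day 7, 0.51 for Sa/CD99 from day 7 to day 14, and, for day 14 against day 0, -0.33 in Saos-2, no longer called, and 0.27 in Sa/CD99. Without normalization the changes were 0.36 and 0.33 from day 0 to day 7 in Saos-2 and Sa/CD99, 0.22 for Sa/CD99 from day 7 to day 14, and 0.19 and 0.55 from day 0 to day 14. Without background correction, Sa/CD99 against Saos-2 was 0.098 at day 0 and 0.014 over all days, and the changes from day 0 to day 7 were called, at -0.35 in Saos-2 and -0.59 in Sa/CD99. With no filter these last changes were called at unaltered values of -0.48 and -0.71 (adjusted p-values of 0.0402 and 0.015), since the standard error fell from 0.30 to 0.16. With only the arrays compared, Saos-2 day 14 against day 0 (-1.06) was no longer called, and neither was Sa/CD99 (-0.85) at the other threshold. The cause of the changes of sign was not tested.

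Leaving out each array in turn, miR-29a between cell types ranged from -0.084 to -0.026 at day 0, -0.48 to -0.093 at day 7, -0.045 (without Saos-2 day 14 replicate 1) to 0.35 at day 14, and -0.13 to 0.0024 over all days (above 0 without Sa/CD99 day 7 clone 36, at 0.00089, or Saos-2 day 14 replicate 2). Over days it ranged from -0.57 to -0.38 and -0.90 to -0.51 from day 0 to day 7 in Saos-2 and Sa/CD99, -0.78 to -0.39 and -0.34 to 0.045 (without Sa/CD99 day 7 clone 22) from day 7 to day 14, and -1.25 to -0.86 and -0.90 to -0.81 from day 0 to day 14. The day 14 against day 0 call was lost in Saos-2 without either day 0 array or without day 14 replicate 1, and in Sa/CD99 without any 1 of its 4 arrays of those days, with adjusted p-values of 0.0563 to 0.111. The interaction had adjusted p-values from 0.70 to 0.999. With a single array left in a group, that array was assumed to vary like the others.

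miR-29b-1* turned sign between cell types with rma (-0.66 at day 0, -0.10 at day 7, -0.20 over all days), without normalization (-0.20 and -0.037 at days 0 and 7) and without background correction (-0.14, -0.021 and -0.042), and over days as filed (0.15 and 0.10 from day 0 to day 7 in Saos-2 and Sa/CD99, 0.38 and 0.48 for Sa/CD99 from day 7 and from day 0 to day 14). Leaving out an array gave values between -0.025 and 0.31 at day 0, -0.48 and 0.82 at day 7, -0.044 and 0.29 at day 14 and -0.072 and 0.36 over all days. Over days it gave -3.12 to -2.76 and -3.56 to -2.26 from day 0 to day 7 in Saos-2 and Sa/CD99, -2.05 to -1.69 and -2.56 to -1.26 from day 7 to day 14, and -4.97 to -4.64 and -4.99 to -4.66 from day 0 to day 14. That last difference was smaller on the scanner arrays under the matching labels, at -1.78 and -0.97 with rma, -1.86 and -1.42 at the 75th percentile, -1.35 and -0.77 without normalization, and -0.35 and -0.17 without background correction. Its call in Sa/CD99 from day 7 to day 14 was lost in 12 of 23 settings, and with the arrays as filed it was called between cell types over all days, at 0.95.

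The number of miRNAs called ranged over all settings from 0 to 26, 0 to 28 and 4 to 37 between cell types at days 0, 7 and 14 (6, 7 and 20 as reported), 0 to 96 over all days (6), 0 to 700 and 0 to 688 from day 0 to day 7 in Saos-2 and Sa/CD99 (80 and 70), 0 to 19 and 0 to 79 from day 7 to day 14 (0 and 43), 0 to 727 and 0 to 760 from day 0 to day 14 (122 and 163), and 0 to 26 for the interaction (4). In the comparisons with day 0, the 0 came from the arrays as filed and the highest from no filter, while the highest from day 7 to day 14 came without Saos-2 day 7 replicate 2. With the replicate block, miR-29a over all days was -0.063 with an adjusted p-value of 0.908, the calls over all days went from 6 to 3, and no call of miR-29a changed. Slide as a fixed term could not be fitted, since no group was on both slides, and normexp could not be fitted on 2 arrays and was not run. The small number of arrays limits the precision, and dim spots limit miR-29b, miR-29c and the opposite arms.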
